A study of Mus musculus with 17 samples.

Results

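The genes described here are the D-type cyclins Ccnd1, Ccnd2 and Ccnd3, the kinases that pair with them, Cdk4 and Cdk6, the kinase inhibitors Cdkn1a, Cdkn1b, Cdkn1c and Cdkn2c, and the retinoblastoma gene Rb1. They were chosen by name, and each is represented by the probe set that carries its symbol alone and has the brightest mean over the arrays. Of the 10 genes, 9 could be followed in this way, among 19937 genes measured. The 1 probe set of Cdkn1a also carries another symbol, so that no value is given for this gene. Levels are log2 signals, and a difference of 1 is a 2-fold change. On an array the level of one gene cannot be set against that of another, so each gene is compared only with itself.

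The arrays hold CD31+CD45− cells of the aorta-gonad-mesonephros (AGM) region of mouse embryos at E11.5, sorted with antibodies against CD31, CD45 and the erythroid antigen Ter119. Kit− cells, which are largely endothelial, and Kit+ cells, which hold the haematopoietic clusters, were taken fresh in 3 arrays each. CD31+ cells kept for 2 h on OP9, a stromal line from mouse bone marrow that carried the Notch ligand Jag1 or Dll4, were sorted again by Kit, which gave Kit−J (2 arrays, 1 further sample having been excluded by the authors for technical reasons), Kit+J, Kit−D and Kit+D (3 arrays each). The comparisons set these fractions against each other and against the fresh ones. Kit− and Kit+ cells on a stroma are thus cells gated by Kit after culture, and a ligand or culture effect is a difference between such fractions. On these arrays, cells that crossed the Kit gate during the 2 h cannot be told apart from a change of level within a population. No OP9 culture without an added ligand is among the samples. The mouse strain and the number of embryos in a sort are not given in the sources used here, and the replicates are independent sorts amplified from a few nanograms of RNA. The fresh arrays belong to an earlier series, so that between cultured and fresh groups the culture cannot be told apart from the set of arrays.

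D-type cyclins are made in response to outside signals, Notch among them in several tissues, and activate Cdk4 and Cdk6 in the G1 phase of the cell cycle. The active kinases phosphorylate the retinoblastoma protein, which then releases E2F transcription factors and lets the cell enter S phase. Inhibitors of the INK4 family, such as that of Cdkn2c, hold Cdk4 and Cdk6, whereas those of the Cip/Kip family, made by Cdkn1a, Cdkn1b and Cdkn1c, act mainly on the cyclin E and cyclin A kinases. In blood and vessel formation these genes are known for the balance between dividing and resting cells, and Cdkn1c is a known marker of quiescent haematopoietic stem cells.

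Several arrays stood apart from their groups or labels. A line of the labels names the opposite Kit population for 4 arrays, both of Kit−J and replicate 3 of each OP9-Dll4 group, whereas the titles and sources name the groups used here. Signals of Kit itself ran from 8.13 to 8.29 in the Kit− arrays and from 9.44 to 9.55 in the Kit+ arrays. After culture they ran from 7.05 to 8.02 (Kit−D), 9.02 to 9.93 (Kit+J) and 8.51 to 8.99 (Kit+D), and the 2 Kit−J arrays were at 9.08 and 8.50. The Kit−J arrays thus lay above every fresh Kit− array, replicate 1 within the range of Kit+J and replicate 2 just under that of Kit+D. The endothelial receptor gene Kdr was at 9.62 to 9.83 (Kit−), 9.83 to 10.26 (Kit−D), 5.11 and 6.38 (Kit−J) and at most 6.89 in any array of the Kit+ groups, so that by Kdr as well the Kit−J arrays lay with the Kit+ groups. Cdh5, which encodes VE-cadherin, was at 8.15 and 8.29 in Kit−J, between the Kit− arrays (median 11.04) and all arrays of Kit+ and Kit+J (at most 6.55) and within the range of Kit+D (5.93 to 8.58). Among the OP9-Dll4 arrays, replicate 1 differed from replicates 2 and 3 in blood cell genes: Ptprc, which encodes the CD45 that the sort selected against, was at 8.59, 4.46 and 4.16 in Kit−D and at 8.99, 5.54 and 4.64 in Kit+D. In the other groups Ptprc ran from 7.38 (lowest, Kit+J) to 9.2 (highest, Kit−). Replicate 1 thus lay within the range of the rest of the series, and replicates 2 and 3 lay below it. For 8 germ cell markers, the list mean (log2, minus the mean of fresh Kit−) of the Kit−D arrays was −2.18, −1.82 and −0.67, and the Kit+D arrays were at −1.60, 1.20 and 1.74. For 10 stromal markers, the corresponding values were −0.22, 0.60 and 1.01 (Kit−D) and −1.33, −0.87 and 0.25 (Kit+D). Calls that use OP9-Dll4 arrays were also tested without 3 arrays in doubt, replicate 3 of Kit−D and replicates 1 and 3 of Kit+D, chosen with earlier results on such markers known. This leaves Kit+D with 1 array, whose spread is taken from the other groups.

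In the 12 comparisons made, 5 of the 9 genes passed the test at least once, Ccnd1 and Cdkn1c most often. In fresh cells 2 of 9, Ccnd1 and Cdkn1c, were lower in Kit+ than in Kit−, where 2.67% of all genes tested were lower. The same pair, 2 of 9, was lower in Kit−J than in fresh Kit−, beside 1.89% of all genes. Between the stromas in Kit− cells 4 of 9 were lower on OP9-Jag1 (Ccnd1, Cdk4, Cdkn1b and Cdkn1c), beside 6.07%. In Kit+J against Kit+D 2 of 9 were lower (Ccnd1 and Cdk4), beside 1.68%, and in Kit+D against fresh Kit+ 1 of 9, Ccnd1, was higher, beside 1.04%. In Kit+D against Kit−D 3 of 9 were lower (Ccnd1, Cdkn1b and Cdkn1c), beside 6.62%, and 1 of 9, Ccnd3, was higher, beside 6.5%. No gene of the group was called in Kit−D against fresh Kit− (0.171% of all genes in either direction), in Kit+J against fresh Kit+ (0.0201%) or in Kit+J against Kit−J (0.0903%). By limma at an unadjusted p under 0.05, each of these 3 comparisons held 1 of the 9 genes, beside 2238, 1330 and 2133 of all 19937 genes. These samples are bulk RNA of sorted cells, so that fewer cells of a type and less RNA per cell cannot be told apart.

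**Figure D1:**
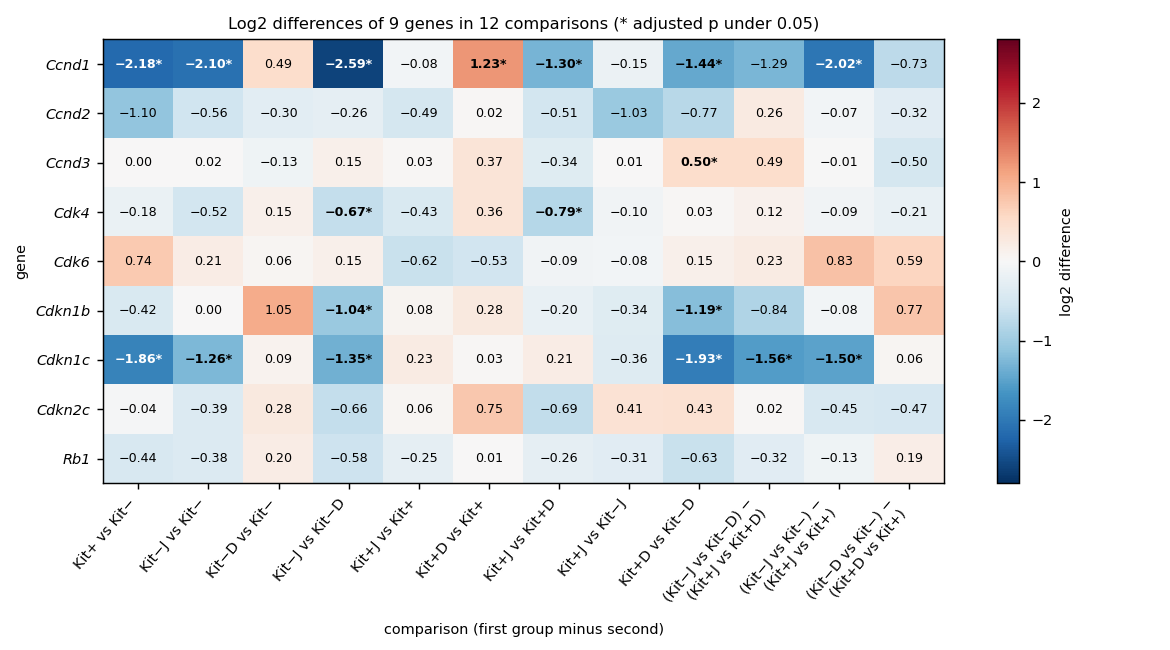
Log2 difference (colour and number) of the 9 measured genes (vertical axis) in 12 comparisons (horizontal axis, first group minus second, the last 3 being differences of differences); an asterisk marks an adjusted p under 0.05 from limma. Calls are concentrated in Ccnd1 and Cdkn1c, from −2.59 for Ccnd1 in Kit−J against Kit−D to 1.23 in Kit+D against Kit+.

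Ccnd1, which encodes cyclin D1, varied more between groups than any other gene of the set, with group means 2.75 apart, a wider span than for 98.7% of all genes. Its level was 8.75, 8.68 and 9.10 in fresh Kit− replicates 1 to 3 and 6.65, 6.34 and 7.02 in fresh Kit+. After culture it was 6.23 and 7.27 in Kit−J, and 9.12, 9.02 and 9.88 in Kit−D. In the Kit+ fractions it was 6.71, 6.74 and 6.33 on OP9-Jag1 and 7.85, 7.78 and 8.06 on OP9-Dll4. Thus Kit−D and Kit− were high and overlapped, Kit+D lay between, and Kit−J, Kit+ and Kit+J were low and overlapped. Ccnd1 was 4.52-fold lower in Kit+ than in Kit− (log2 difference −2.18, SE 0.28, limma adjusted p = 0.000213). Kit−J was 4.28-fold below fresh Kit− (−2.10, SE 0.31, adjusted p = 0.0018) and 6.03-fold below Kit−D (−2.59, SE 0.31, adjusted p = 0.000147). The latter held in every alternative fit, whereas the former missed the threshold without Kit−J replicate 1, the lower of the pair (−1.58, adjusted p = 0.0553). On OP9-Dll4, Kit− cells did not differ from fresh cells beyond the threshold (0.49, 95% interval from −0.09 to 1.08).

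In Kit+ cells the stromas also differed in Ccnd1, to a smaller extent and with less certainty. Kit+D was 2.34-fold above fresh Kit+ (1.23, SE 0.28, limma adjusted p = 0.0427), and Kit+J 2.47-fold below Kit+D (−1.30, SE 0.28, adjusted p = 0.0252), the Kit+D arrays being shared by both comparisons. The arrays of Kit+D did not overlap those of Kit+ or Kit+J. Leaving out any 1 of the 6 arrays of Kit+D and Kit+ ended the first call (adjusted p from 0.0569 to 0.163), and leaving out 4 of 6 ended the second (up to 0.0768); without the arrays in doubt the values were 1.11 (adjusted p = 0.168) and −1.19 (adjusted p = 0.135). Kit+J and fresh Kit+ differed by −0.08 (95% interval from −0.66 to 0.51), and Kit+J and Kit−J by −0.15 (from −0.81 to 0.50). Between Kit populations on OP9-Dll4, Ccnd1 was 2.72-fold lower in Kit+D (−1.44, SE 0.28, adjusted p = 0.00341), and without the arrays in doubt −1.29 (adjusted p = 0.0682). The effect of Jag1 culture was more negative in Kit− than in Kit+ cells by −2.02 (SE 0.41, adjusted p = 0.0394), a difference of differences in which 2 of the 9 genes and 0.557% of all genes were lower. It was lost in 9 of 11 fits that leave out an array (−1.50, adjusted p = 0.238, without Kit−J replicate 1). The same contrast for the ligands, Jag1 minus Dll4, was −1.29 (adjusted p = 0.131), and for Dll4 culture −0.73 (adjusted p = 0.613).

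**Figure D2:**
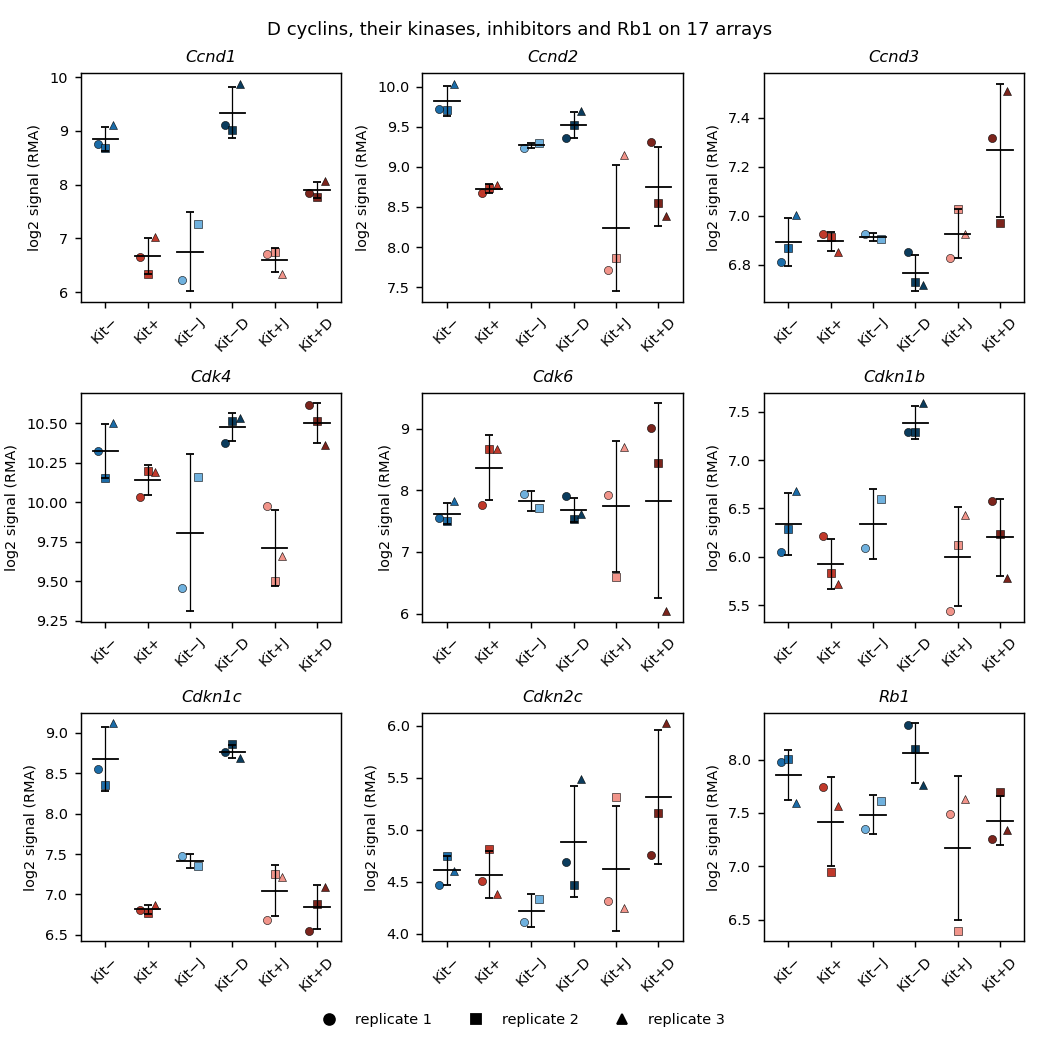
Log2 signal (vertical axis) of each measured gene in the 6 groups (horizontal axis), 1 point per array with the shape giving its replicate number, the bar the group mean and the whiskers 1 SD. Vertical scales differ between panels. Ccnd1 and Cdkn1c are high in Kit− and Kit−D, Cdkn1b is highest in Kit−D, and Cdk6 spreads widely in Kit+D, from 6.04 to 9.01.

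Ccnd2, the cyclin D2 gene, was likewise highest in Kit− and Kit−D, at smaller distances. Unlike for Ccnd1, its Kit−J arrays lay above all those of Kit+ and Kit+J. It was at 9.72, 9.71 and 10.04 in Kit−, 8.67, 8.73 and 8.78 in Kit+, and 9.24 and 9.29 in Kit−J. On OP9-Dll4 it was at 9.36, 9.52 and 9.69 for Kit−D cells and 9.31, 8.55 and 8.39 for Kit+D cells, whereas Kit+J replicates 1 to 3 were at 7.71, 7.86 and 9.14. The fresh groups did not overlap, Kit+J replicate 3 stood apart from its group, and no comparison passed the threshold. The widest difference, Kit+ against Kit−, was −1.10 (SE 0.31, limma adjusted p = 0.0746). It passed when the fresh arrays were fitted alone, with array weights and with housekeeping scaling. Kit+J against Kit−J was at −1.03 (95% interval from −1.76 to −0.30, limma adjusted p = 0.279), and these groups did not overlap. Between stromas the difference was −0.26 in Kit− (95% interval from −0.99 to 0.48) and −0.51 in Kit+ cells (from −1.17 to 0.14).

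Ccnd3, the third D cyclin and the one most used by blood cells, varied least. On the fresh and the OP9-Jag1 arrays it lay between 6.81 and 7.03. It was 6.85, 6.73 and 6.72 in Kit−D, whereas Kit+D was at 7.32, 6.97 and 7.51, groups that did not overlap. Kit+D was 1.41-fold above Kit−D (0.50, SE 0.14, limma adjusted p = 0.026), the only rise of a D cyclin from Kit− to Kit+ that passed. This call is among the least stable: it was lost without Kit−D replicate 2 or 3 or Kit+D replicate 1 or 3 (adjusted p from 0.0554 to 0.0936), with housekeeping scaling, and without the arrays in doubt (0.18, adjusted p = 0.615). Over the 3 D cyclins, then, Kit+D lay lower than Kit−D for Ccnd1, higher for Ccnd3, and at −0.77 without passing for Ccnd2 (adjusted p = 0.113).

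Cdk4 and Cdkn1b are shown with their promoters because both passed the test between the stromas in Kit− cells and both have a promoter window among the RefSeq sequences used here, which cover 250 bases before to 50 after a gene's start in build GRCm38.p6. The windows were searched on both strands for the core of the Notch effector RBPJ (TGGGAA), for E2F (TTTGGCGC or TTTCCCGC), for the GC box (GGGCGG) and for a forkhead motif (GTAAACA). Of 32851 windows, 25.6% hold the first, 1.56% the second, 35.7% the third and 3.65% the last. Capitals mark the matches. Of the 9 measured genes 5 have a window (Ccnd3, Cdk4, Cdk6, Cdkn1b and Cdkn2c).
Cdk4, chr10:127063285-127063584, plus strand: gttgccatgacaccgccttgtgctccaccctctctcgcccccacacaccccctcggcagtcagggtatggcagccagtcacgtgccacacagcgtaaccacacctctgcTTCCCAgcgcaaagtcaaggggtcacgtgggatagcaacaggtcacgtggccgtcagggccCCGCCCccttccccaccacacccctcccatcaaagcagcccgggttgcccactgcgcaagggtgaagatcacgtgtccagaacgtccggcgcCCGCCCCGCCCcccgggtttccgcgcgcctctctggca
Cdkn1b, chr6:134920151-134920450, plus strand: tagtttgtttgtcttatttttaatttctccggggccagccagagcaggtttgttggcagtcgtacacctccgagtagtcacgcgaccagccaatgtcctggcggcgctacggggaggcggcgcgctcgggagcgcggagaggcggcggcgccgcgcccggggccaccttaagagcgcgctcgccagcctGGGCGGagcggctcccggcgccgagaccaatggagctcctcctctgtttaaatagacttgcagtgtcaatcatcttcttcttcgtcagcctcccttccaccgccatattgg
The Cdk4 window holds 1 RBPJ core, read on the opposite strand at position −141 from the start, and 3 GC boxes, the last 2 of which share a base. The Cdkn1b window holds 1 GC box, at position −61. Motifs of different kinds do not overlap in either window. Among the windows of the other genes, none holds an RBPJ core or an E2F match, 1 of those of Ccnd3 holds a forkhead match, and that of Cdk6 holds no match.

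Cdk4, the kinase that D cyclins activate in most tissues, was at 10.32, 10.16 and 10.50 in Kit− and 10.04, 10.20 and 10.19 in Kit+. On OP9-Jag1 it was at 9.46 and 10.16 in Kit−J and 9.97, 9.50 and 9.66 in Kit+J, and on OP9-Dll4 at 10.37, 10.51 and 10.54 for Kit−D cells and 10.62, 10.52 and 10.37 for Kit+D cells. In both Kit populations all OP9-Jag1 arrays lay below all OP9-Dll4 arrays. The difference was −0.67 in Kit− (SE 0.20, limma adjusted p = 0.0484, 1.59-fold) and −0.79 in Kit+ cells (SE 0.18, adjusted p = 0.0347, 1.73-fold), with a difference between these of 0.12 (95% interval from −0.45 to 0.69). The first rests on Kit−J replicate 1, without which it was −0.32 (adjusted p = 0.559). It was also lost without any 1 Kit−D array, the second was lost in 4 of the 6 fits that leave out an array, and without the arrays in doubt the pair had adjusted p-values of 0.126 and 0.163. Against fresh cells neither stroma gave a call, with −0.52 in Kit−J (adjusted p = 0.255), −0.43 in Kit+J (0.661), 0.15 in Kit−D (0.823) and 0.36 in Kit+D (0.322).

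Cdk6, the partner kinase that blood progenitors use, had the most variable replicates of the set, with an SD within groups of 0.85 that was wider than that of 98.5% of all genes. It was at 7.54, 7.50 and 7.82 in Kit−, 7.76, 8.67 and 8.67 in Kit+, 7.94 and 7.71 in Kit−J and 7.90, 7.53 and 7.62 in Kit−D. In Kit+J the arrays were at 7.92, 6.60 and 8.71, and in Kit+D at 9.01, 8.45 and 6.04. The spread lay in the cultured Kit+ groups, in which the highest and lowest arrays of the whole series were both Kit+D. No comparison passed, the widest between groups being Kit+ against Kit− at 0.74 (SE 0.61, limma adjusted p = 0.697). The interval for Kit+J against Kit+D ran from −1.39 to 1.21, so that changes of more than 2-fold in either direction could not be told from 0.

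On the same Kit+D arrays the mean of 8 haematopoietic markers, relative to fresh Kit−, was 1.07, 0.10 and −1.13. In Kit+J, where Cdk6 also spread, it was 0.06, 0.11 and 0.21. In Kit+D replicates 1 to 3 the mean of 8 myeloid markers was 1.02, −1.58 and −2.11 and that of 8 germ cell markers −1.60, 1.20 and 1.74. The part of these cells in the Cdk6 level was not tested. The genes whose levels followed Cdk6 most closely over the 17 arrays were Dapp1, an adaptor of B cell signalling (r = 0.901), Nop10, a ribonucleoprotein gene (0.852), and Elf1, a lymphoid ETS factor (0.848). These arrays share groups and markers, and the correlations are descriptions.

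**Figure D3:**
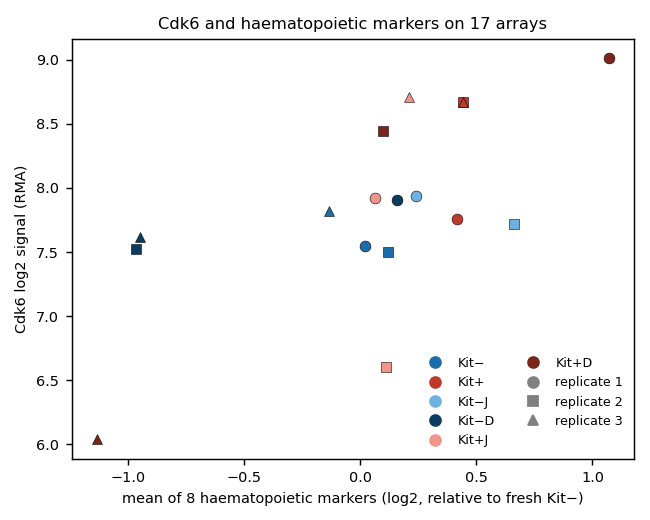
Cdk6 log2 signal (vertical axis) against the mean log2 level of 8 haematopoietic markers relative to fresh Kit− (horizontal axis) on the 17 arrays, with colour giving the group and shape the replicate number. Kit+D runs from replicate 3 at the lower left (−1.13, 6.04) to replicate 1 at the upper right (1.07, 9.01), whereas Kit+J spans 6.60 to 8.71 in Cdk6 with marker means from 0.06 to 0.21.

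Of the Cip/Kip inhibitors, Cdkn1c, which encodes the Kip2 protein and is also an imprinted growth regulator, moved most like Ccnd1. It was at 8.56, 8.36 and 9.12 in Kit−, 6.80, 6.77 and 6.87 in Kit+, 7.47 and 7.35 in Kit−J and 8.76, 8.86 and 8.69 in Kit−D. In the cultured Kit+ groups it was at 6.68, 7.25 and 7.21 in Kit+J and 6.55, 6.88 and 7.09 in Kit+D. Kit− and Kit−D were high, the Kit+ groups were low, and Kit−J lay between them without overlapping any other group. Kit+ was 3.64-fold below Kit− (−1.86, SE 0.20, limma adjusted p = 5.65e-05), and Kit+D 3.80-fold below Kit−D (−1.93, SE 0.20, adjusted p = 3.74e-05). Kit−J was 2.40-fold below fresh Kit− (−1.26, SE 0.23, adjusted p = 0.00739) and 2.56-fold below Kit−D (−1.35, SE 0.23, adjusted p = 0.00197). Of these 4 calls, that of Kit−J against fresh Kit− alone was lost in any alternative, without Kit−J replicate 1 (−1.33, adjusted p = 0.0653) and when only the 2 groups compared were fitted (adjusted p = 0.067).

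Unlike Ccnd1, Cdkn1c gave no call between stromas in Kit+ cells, where Kit+J was at 0.21 relative to Kit+D (95% interval from −0.22 to 0.64). The ligand effect itself differed between the Kit populations by −1.56 (SE 0.30, limma adjusted p = 0.0203), a contrast in which 1 of the 9 genes and 1.36% of all genes were lower. The effect of Jag1 culture differed by −1.50 (SE 0.30, adjusted p = 0.0374) and that of Dll4 culture by 0.06 (95% interval from −0.55 to 0.67), where 0 of 9 genes and 0% of all genes passed, with 1 and 1790 at an unadjusted p under 0.05. Both calls depended on 1 or more arrays, the first being lost without Kit−J replicate 1 or Kit−D replicate 2 (adjusted p up to 0.0713), without the arrays in doubt (0.0763), with the replicate block on the cultured arrays alone (0.123) and in 3 further fits, and the second in 9 of 11 fits that leave out an array (up to 0.141).

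Cdkn1b, the Kip1 gene, whose product also helps assemble cyclin D complexes, had its highest level in Kit−D. It was at 6.05, 6.29 and 6.68 in Kit−, 6.21, 5.83 and 5.72 in Kit+, and 6.09 and 6.60 in Kit−J. In Kit−D it was at 7.29, 7.29 and 7.59, against 5.44, 6.13 and 6.44 in Kit+J and 6.58, 6.23 and 5.78 in Kit+D. All Kit−D arrays lay above all other arrays, and the other 5 groups overlapped one another. Kit−J was 2.06-fold below Kit−D (−1.04, SE 0.30, limma adjusted p = 0.0419) and Kit+D 2.28-fold below it (−1.19, SE 0.27, adjusted p = 0.00943). The difference of Kit−D from fresh Kit− missed the threshold (1.05, SE 0.27, adjusted p = 0.129), and the difference of ligand effects between Kit populations was −0.84 (adjusted p = 0.31). Without Kit−J replicate 1 the difference of Kit−J from Kit−D was −0.79 (adjusted p = 0.364), it was also lost without any 1 Kit−D array (up to 0.128), and without the arrays in doubt the values were −0.95 (adjusted p = 0.0988) and −1.05 (adjusted p = 0.13).

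A second probe set of Cdkn1b gave the same high group, with 7.42, 7.70 and 8.14 in Kit−D. The other levels were 6.59, 6.42 and 6.22 in Kit−, 5.37, 5.78 and 5.73 in Kit+, 5.04 and 6.88 in Kit−J, 5.17, 4.64 and 6.34 in Kit+J and 7.11, 6.53 and 6.81 in Kit+D. It differed from the first in Kit+D, which here lay above Kit+ and Kit+J on all arrays. When every probe set was tested, the second gave −1.79 in Kit−J against Kit−D (limma adjusted p = 0.0493), where the first gave an adjusted p of 0.0622. In Kit+D against Kit−D the second gave −0.94 (adjusted p = 0.202) and the first −1.19 (adjusted p = 0.0165). In Kit+J against Kit+D they gave −1.43 (adjusted p = 0.0979) and −0.20 (adjusted p = 0.732).

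**Figure D4:**
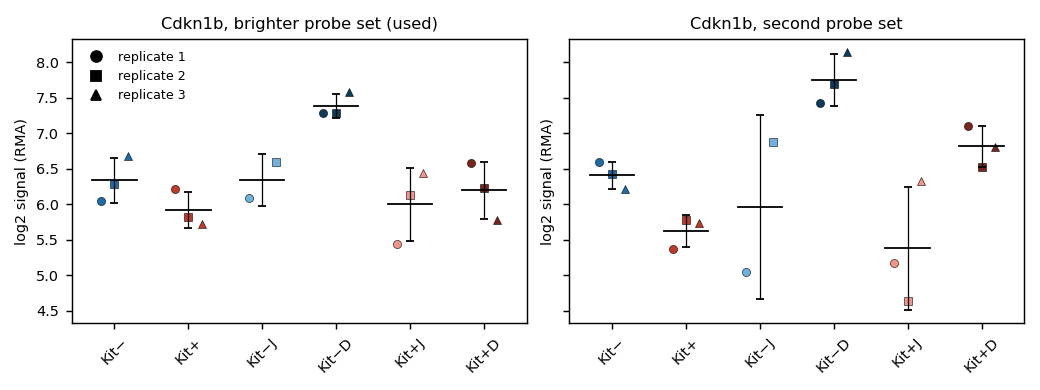
Log2 signal (vertical axis) of the 2 probe sets of Cdkn1b in the 6 groups (horizontal axis), with points for arrays, bars for means and whiskers for 1 SD. Kit−D is highest in both panels, at 7.29 to 7.59 and 7.42 to 8.14, whereas the Kit+D points lie above all those of Kit+ in the second panel only.

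Cdkn2c, the INK4 inhibitor gene that lymphoid and germ cells are known to use, was dim, with a mean level above that of 30.8% of genes only. It was at 4.47, 4.75 and 4.61 in Kit−, 4.51, 4.82 and 4.38 in Kit+, 4.11 and 4.33 in Kit−J and 4.69, 4.47 and 5.49 in Kit−D. In Kit+J it was at 4.32, 5.32 and 4.25 and in Kit+D at 4.76, 5.16 and 6.03. The highest arrays were Kit+D replicate 3 and Kit−D replicate 3, both of them among the arrays in doubt, and no comparison passed (lowest adjusted p 0.268 by limma). The widest difference, Kit+D against Kit+, was 0.75 (95% interval from 0.03 to 1.47, adjusted p = 0.277).

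Rb1, which encodes the retinoblastoma protein that the cyclin D kinases act on, gave no call either. It was at 7.98, 8.01 and 7.59 in Kit−, 7.74, 6.95 and 7.57 in Kit+, 7.35 and 7.61 in Kit−J, 8.32, 8.10 and 7.76 in Kit−D, 7.49, 6.39 and 7.63 in Kit+J and 7.25, 7.69 and 7.34 in Kit+D. All arrays of Kit−D lay above those of Kit−J and of Kit+D. The difference of Kit+D from Kit−D was −0.63 (95% interval from −1.25 to −0.01, limma adjusted p = 0.174), and that of Kit−J from Kit−D −0.58 (from −1.27 to 0.12, adjusted p = 0.265).

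Calls among S phase and mitotic genes were most frequent between Kit+D and Kit−D. In that comparison 6.5% of all genes were called higher and 6.62% lower. Of 24 measured S phase genes, 14 were called higher and 0 lower in Kit+D than in Kit−D, with a median of 0.65 beside 0.05 for all genes. They included Dut, which clears dUTP (1.41, SE 0.14, limma adjusted p = 2.54e-05), Cdt1, which licenses replication origins (1.64, SE 0.20, adjusted p = 0.000129), and the replicative helicase gene Mcm7 (1.47, SE 0.20, adjusted p = 0.000319). Of 24 genes of G2 and mitosis 9 were higher and 0 lower (median 0.62), among them the ubiquitin-conjugating gene Ube2c (0.84, adjusted p = 0.00215) and Cenpa, the centromeric histone (1.04, adjusted p = 0.00544). Of 35 other G1 control genes 2 were higher, the cyclin E gene Ccne1 (1.17, adjusted p = 0.0246) and E2f1 (0.63, adjusted p = 0.0296), and 1 lower, the kinase gene Gsk3b, whose product marks cyclin D1 for degradation (−0.82, adjusted p = 0.0159). Of the 6 fits that leave out an array, Ccne1 was called in 1 (without Kit+D replicate 1), E2f1 in 2 (without Kit−D replicate 3 or Kit+D replicate 1) and Gsk3b in 5 (not without Kit−D replicate 3). Over the 9 genes of the set the median was −0.63, which is the value of Rb1, a gene not called. The set did not move as one, since Ccnd3, Cdkn2c, Cdk6 and Cdk4 had positive differences. The called S phase and mitotic genes were thus higher in Kit+D while Ccnd1, Cdkn1b and Cdkn1c were lower. Without the arrays in doubt 10 S phase, 5 mitotic and 1 G1 gene were higher and 0 lower, and with the replicate block on the cultured arrays alone 9, 2 and 0. Leaving out Kit−D replicate 2 left 2 mitotic genes, leaving out Kit+D replicate 1 gave 12, and each of the other arrays left 5. In that blocked fit Ccnd1 and Cdkn1c kept their calls, whereas Cdkn1b (adjusted p = 0.0553) and Ccnd3 (adjusted p = 0.153) did not.

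In fresh cells, where 112 of all 19937 genes were higher in Kit+ than in Kit−, the same lists held 1 higher call each. Their medians lay above that of all genes, as they did in Kit+D against Kit−D. Kit+ exceeded Kit− in 1 of 24 S phase genes (Gins1, 1.04, limma adjusted p = 0.022), 1 of 24 mitotic genes (Cks2, 0.70, adjusted p = 0.04) and 1 of 35 G1 genes (Ccnh, 0.75, adjusted p = 0.0146), with medians of 0.36, 0.24 and 0.17 beside 0.06 for all genes. Of the 6 fits that leave out an array, Gins1 was called in 1 (without Kit− replicate 1), Cks2 in 0 and Ccnh in 4 (not without Kit− or Kit+ replicate 1). In Kit−J against Kit−D, Gsk3b (−1.09, adjusted p = 0.00899) and Mnat1, which encodes a subunit of the CDK-activating kinase (−0.80, adjusted p = 0.0291), were lower among the G1 genes, Mnat1 being lost without the arrays in doubt, without any 1 Kit−D array or without Kit−J replicate 1, and Gsk3b without the last of these. Cdc45, a replication factor, was higher (0.77, adjusted p = 0.0465), a call lost in each of the 5 fits that leave out an array. Between Kit−J and fresh Kit− cells none of the 3 lists held a call, and their medians lay between 0.03 and 0.12 beside 0.09 for all genes.

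In Kit+ cells the repressor E2f4, a partner of retinoblastoma-family proteins, was at 8.68, 8.38 and 8.49 in Kit+D, 7.19, 7.28 and 7.22 in Kit+ and 7.84, 7.01 and 6.42 in Kit+J. It rose in Kit+D against Kit+ (1.29, limma adjusted p = 0.0382) and Kit+J was below Kit+D (−1.43, adjusted p = 0.0194). Cdt1, Tk1 and Dut, 3 of 24 S phase genes, went the same way in both comparisons, by 1.36, 1.07 and 0.70 in Kit+D against Kit+ (adjusted p from 0.00629 to 0.0467) and by −1.11, −1.26 and −0.80 in Kit+J against Kit+D (from 0.0124 to 0.0194). The mitotic kinase gene Cdk1 was lower on OP9-Jag1 than on OP9-Dll4 (−0.86, adjusted p = 0.0264). The ligand effect on Cdt1, Tk1 and Dut also differed between the Kit populations (1.50, 1.53 and 1.27, adjusted p from 0.0108 to 0.0488), a call that Dut alone kept without the arrays in doubt and none of the 3 kept with the replicate block on the cultured arrays alone. Without the arrays in doubt Dut alone of these 5 genes was called in either comparison between Kit+ groups. Leaving out any 1 array kept Cdt1 in both comparisons, whereas E2f4 against fresh Kit+ and Cdk1 were kept only without Kit+D replicate 3, and E2f4 between Kit+J and Kit+D was lost without Kit+J replicate 2 or 3 or Kit+D replicate 2.

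**Figure D5:**
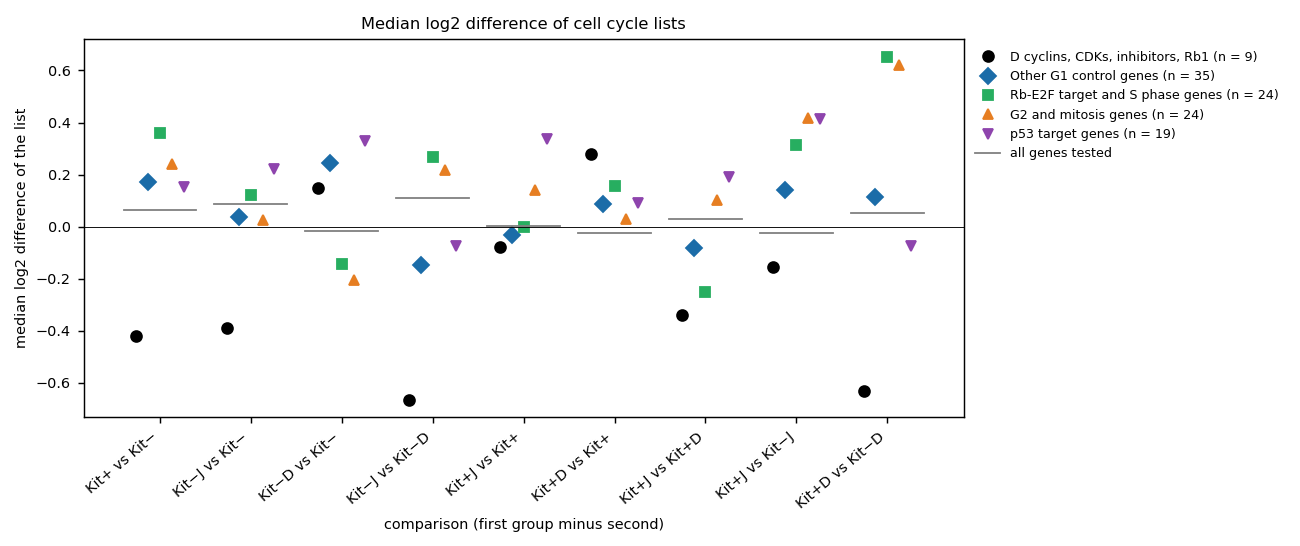
Median log2 difference (vertical axis) of the 9 measured genes and of 4 lists of other cell cycle genes in the 9 pairwise comparisons (horizontal axis, first group minus second), with grey lines for all genes tested. In Kit+D against Kit−D the S phase and mitotic lists lie at 0.65 and 0.62 and the 9 genes at −0.63. The last is the value of Rb1, which was not called, and Ccnd3, Cdkn2c, Cdk6 and Cdk4 have positive differences there.

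Of 19 measured p53 target genes, Plk2, a polo-like kinase gene, was lower in Kit+ than in Kit− (−2.08, limma adjusted p = 0.00115), on OP9-Jag1 than on OP9-Dll4 in Kit− cells (−2.12, adjusted p = 0.00201) and in Kit+D than in Kit−D (−2.27, adjusted p = 0.000377), which are 3 of the 4 comparisons between groups that called both Ccnd1 and Cdkn1c. It was not called in the difference of Jag1 effects, which also called both. In the comparison of Kit+D with Kit−D, Btg2 was also lower (−1.10, adjusted p = 0.0305, lost without the arrays in doubt, Kit−D replicate 2 or 3 or Kit+D replicate 3) and the stress gene Sesn2 higher (1.22, adjusted p = 0.00298). The medians of the list were 0.15, −0.07 and −0.07.

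Endothelial markers were lower in the 4 comparisons between groups that called both Ccnd1 and Cdkn1c. Of 8 such markers 7 were lower in Kit+ than in Kit− (median −2.67), 6 in Kit−J than in Kit− (−2.15), 7 in Kit−J than on the Kit−D arrays (−2.66) and 8 in Kit+D than in Kit−D (−2.82). The second of these counts was 2 without Kit−J replicate 1. In the difference of ligand effects, which called Cdkn1c but not Ccnd1, 4 of 8 were lower. In Kit+J against Kit+D, which called Ccnd1 but not Cdkn1c, 2 of 8 were lower. In Kit+J against Kit−J, which called neither gene, 1 of 8 was lower. In Kit+D against fresh Kit+, which called Ccnd1 higher, 1 of 8 was higher. In the difference of Jag1 effects, which also called both genes, 2 of 8 endothelial and 0 of 10 stromal markers were lower. Their mean relative to fresh Kit− ran from −0.16 to 0.15 in the Kit− arrays, from 0.18 to 0.66 in those of Kit−D and from −2.61 to −2.07 in those of Kit−J, against −3.17 to −2.86 (Kit+), −3.44 to −3.12 (Kit+J) and −3.18 to −1.78 (Kit+D). Kdr and Cdh5 reached their lowest values at 4.63 and 4.68, under the median of all values (5.29), whereas Pecam1, the CD31 gene, was never under 7.60. Of 10 stromal markers 1 to 4 were lower in the 4 comparisons (Pdgfra in each, a call lost without Kit−J replicate 1 in Kit−J against Kit−, without the arrays in doubt in the comparisons that use Kit−D, and, against Kit−D, in Kit−J without any 1 array but Kit−D replicate 1), with means of −0.27 to 0.20 (Kit−), −0.22 to 1.01 (Kit−D), −1.02 and −0.59 (Kit−J), −1.34 to −1.09 (Kit+), −1.44 to −0.56 (Kit+J) and −1.33 to 0.25 (Kit+D). The part of endothelial or stromal cells in the Ccnd1 and Cdkn1c levels was not tested.

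Among the 3 genes whose levels followed Ccnd1 most closely over the 17 arrays were Timp3, an inhibitor of metalloproteinases (r = 0.962), and Rapgef5 (0.958). For Cdkn1c they were Nr2f2, the venous transcription factor gene (0.967), Ebf3 (0.961) and the cadherin-family gene Fat4 (0.961), and for Ccnd2 the ETS factor gene Ets2 (0.890), Golm1 (0.888) and the myosin gene Myo18a (0.880). These correlations run over all 6 groups at once and have no test.

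In Kit+D, where Ccnd1 was called above fresh Kit+ and above Kit+J, other markers differed as well. The Ccnd1 call against fresh Kit+ was lost on leaving out any 1 of its 6 arrays. Culture and set of arrays cannot be told apart in that comparison. The embryonic globin gene Hbb-y was at 11.39, 11.32 and 10.37 in Kit+D, 6.76, 6.15 and 7.30 in Kit+ and 5.77, 4.27 and 5.29 in Kit+J, and Hba-x, its alpha-type counterpart, at 10.26, 10.42 and 9.21 in Kit+D and at most 5.79 in the other 2 groups. Both were higher in Kit+D than in Kit+ (4.29 and 4.41, limma adjusted p = 0.00346 and 0.00282), 2 of 4 measured erythroid markers, and the list mean ran from −0.17 to 0.70 in Kit+D, −2.01 to −1.79 in Kit+ and −2.45 to −2.38 in Kit+J. Of the endothelial markers Kdr alone was higher (1.44, adjusted p = 0.0491), and it was called in no fit that leaves out an array other than Kit+D replicate 1, nor without the arrays in doubt, where Emcn was called instead. In Kit+J against Kit+D, 2 of 8 endothelial markers were lower, Tek (−1.30, limma adjusted p = 0.00466) and Emcn (−2.68, adjusted p = 0.0397). Fits that leave out 1 array gave 1 to 4 lower and 0 to 1 higher. Both globins were also lower in Kit+ than in Kit− (−4.03 and −3.95), in Kit−J than in fresh Kit− (−2.79 and −3.13) and in Kit− cells on OP9-Jag1 than on OP9-Dll4 (−3.15 and −3.19), although the sort selected against Ter119. The falls that use Kit−J were lost without Kit−J replicate 1, and that from fresh Kit− also without Kit− replicate 3 (Hbb-y without replicate 2 as well). In Kit−J against Kit−D and in Kit+D against Kit−D, 5 of 8 germ cell markers were higher, with list means of 0.72 and 0.90 (Kit−J), −2.18 to −0.67 (Kit−D) and −1.60 to 1.74 (Kit+D). Leaving out 1 array gave 0 to 5 (0 without Kit−J replicate 1) and 0 to 7 (0 without Kit−D replicate 2 or Kit+D replicate 2), and the replicate block on the cultured arrays alone left 1 and 2. Of the haematopoietic markers Myb was higher in both (2.29, adjusted p = 0.0153, lost without Kit−J replicate 2 or Kit−D replicate 3, and 2.32, adjusted p = 0.00493), with list means of −0.97 to 0.16 in Kit−D. The part of red cell RNA, germ cells or blood cells in these results was not tested.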

How the data were processed

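Expression was profiled on Affymetrix Mouse Gene 1.0 ST arrays. The values deposited are on a log2 scale and were obtained by the authors through RMA (background correction, quantile normalization and a summary per probe set). The version of RMA is not given in the sources used here. Array medians lay between 5.22 and 5.38, all columns were mapped to samples, and the number of arrays limits the precision. Groups were taken from titles and sources. Of 34760 probe sets, the 21640 with 1 gene symbol in the platform table were used, with the brightest mean for each gene.

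One group-means model over 17 arrays was fitted with limma 3.58.1 in R 4.3.3, with two-sided moderated tests and Benjamini-Hochberg adjustment over 19937 genes, with calls at an adjusted p under 0.05. The spread of Kit−J, with 2 arrays, was taken to equal that of the rest. The study's text names no test for differential expression on the arrays. The fits were checked on simulated data. Plots were made with matplotlib 3.10.9 (Python 3.11.15).

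The genes, the lists and the rule for named genes (every gene of the set, list genes called in a comparison that calls one, at most 6 a list, and the 3 closest in level to Ccnd1, Ccnd2, Cdk6 and Cdkn1c) were chosen with earlier results of these data known. One of the genes closest to Ccnd1 is not reported here. Ccnd1 is also among the genes the study picked on these samples. Alternatives were other fits, scalings, filters, probe set rules, a replicate block, and fits without single arrays or without 3 OP9-Dll4 arrays in doubt. Counts of the lists in the last of these were added after seeing the data.

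Deviations from the group means correlated between Kit−D and Kit+D arrays of the same number (0.179 to 0.462, against at most 0.134 for other numbers), and both fractions came from the same cultures, so these numbers were taken to pair the arrays. No other 2 groups met this bound. The methods also recover both Kit fractions from each OP9-Jag1 culture. Between Kit−J and Kit+J, arrays of the same number correlated at −0.263 to −0.114, and those of other numbers at −0.194 to 0.263. For these groups the number was not taken to pair the arrays. At most 1.10% of values were identical between any 2 arrays.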

Additional observations from a re-analysis of the deposited data

Results flagged for a closer look

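Cdkn1c differed between the Kit populations in its response to the ligands, Jag1 minus Dll4, by −1.56 (SE 0.30, limma adjusted p = 0.0203), which is a test of the difference of the 2 effects. In Kit− cells the effect was −1.35 and in Kit+ cells 0.21. The former uses the Kit−J arrays, for which a line of the labels names the opposite Kit population. Their Kdr levels (5.11 and 6.38) lay with the Kit+ groups (at most 6.89), away from fresh Kit− (9.62 to 9.83). Their Cdh5 levels (8.15 and 8.29) lay between fresh Kit− and fresh Kit+. The part of the make-up of the Kit−J arrays in this contrast was not tested. The call was lost in 7 of 22 alternative fits, among them that without the arrays in doubt (adjusted p = 0.0763) and that with the replicate block on the cultured arrays alone (0.123).

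The response to Jag1 culture against fresh cells differed in the same way for Ccnd1, by −2.02 (SE 0.41, adjusted p = 0.0394), with −2.10 in Kit− and −0.08 in Kit+ cells, and for Cdkn1c, by −1.50 (SE 0.30, adjusted p = 0.0374), with −1.26 and 0.23. The calls were lost in 12 and 15 of 21 alternative fits. Fresh Kit+ cells were already low in both genes. The same Kit−J arrays, with their contrary label line and low Kdr, enter both contrasts, and their part in them was not tested. Within a Kit population the culture cannot be told apart from the set of arrays in these 2 contrasts. Groups of 2 or 3 arrays are too small for a test of single outlying arrays.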

How the results depend on the processing

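Of 308 alternative fits of the 18 calls, 210 kept the call, 98 lost it and 0 reversed its direction. Called in every fit run were Ccnd1 and Cdkn1c in fresh Kit+ against Kit− cells and between the stromas in Kit− cells, and Cdkn1c in Kit+D against Kit−D. No fit left out both Kit−J arrays or moved them to another group. The fits therefore cannot address the doubt about the labels and the Kit and Kdr levels of these arrays. When only the groups compared were fitted, the genes called numbered 1 in place of 2 in Kit−J against Kit−, 0 in place of 1 in Kit+D against Kit+, 0 in place of 2 in Kit+J against Kit+D, 0 in place of 1 for the difference of ligand effects and 1 in place of 2 for that of Jag1 effects. With array weights they were 1 in place of 0 in Kit−D against Kit− (Cdkn1b, higher), 2 in place of 4 in Kit−J against Kit−D, and 0 in Kit+J against Kit+D and in the differences of ligand and of Jag1 effects. The difference of Jag1 effects kept 1 call with an intensity trend, 1 with housekeeping scaling and 0 with every probe set tested, and that of ligand effects 0 with housekeeping scaling. Kit−J against Kit−D kept 2 with every probe set tested, and Kit+J against Kit+D 1 at a log2 difference of at least 1. Without the arrays in doubt the counts were 2 in Kit−J against Kit−D, 0 in Kit+D against Kit+, 0 in Kit+J against Kit+D, 1 in Kit+D against Kit−D and 0 for the ligand effects. Leaving out 1 array gave 0 to 3 calls in Kit−J against Kit− (0 without Kit−J replicate 1), 2 to 4 in Kit−J against Kit−D, 0 to 0 in Kit+D against Kit+, 0 to 2 in Kit+J against Kit+D, 3 to 4 in Kit+D against Kit−D, 0 to 2 for the ligand and 0 to 1 for the Jag1 effects. The causes were not tested.

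The replicate blocks tie arrays by number in every group fitted, although only Kit−D and Kit+D were taken to be paired. No fit paired these 2 groups alone, so that the counts below do not measure the effect of that pairing. With the replicate number as a block over all arrays, 4 calls were left in Kit+D against Kit−D, 2 in Kit−J against Kit−D, 0 in Kit+D against Kit+, 1 in Kit+J against Kit+D and 0 for the Jag1 effects. With the replicate block and the cultured arrays alone, 2 were left in Kit+D against Kit−D (Ccnd1 and Cdkn1c, Cdkn1b having an adjusted p of 0.0553 and Ccnd3 of 0.153), 2 in Kit−J against Kit−D, 0 in Kit+J against Kit+D and 0 for the ligand effects. Kit−J and Kit+J also came from the same cultures, but outside Kit−D and Kit+D the number was not taken to pair the arrays.

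Over all genes the counts moved more: from 644 to between 417 and 1728 in Kit+ against Kit−, 426 to 105 and 942 in Kit−J against Kit−, 34 to 1 and 780 in Kit−D against Kit−, 1869 to 456 and 2728 in Kit−J against Kit−D, 283 to 6 and 1075 in Kit+D against Kit+, 449 to 1 and 1243 in Kit+J against Kit+D, and 2615 to 1150 and 4063 in Kit+D against Kit−D. Scaling on 7 housekeeping genes moved the median of all genes by −0.14 in Kit+ against Kit−, and higher against lower calls from 112 and 532 to 33 and 637 there, from 658 and 1211 to 227 and 1066 in Kit−J against Kit−D, from 115 and 334 to 29 and 367 in Kit+J against Kit+D, from 207 and 76 to 223 and 15 in Kit+D against Kit+, from 29 and 5 to 16 and 7 in Kit−D against Kit−, and from 1296 and 1319 to 676 and 1165 in Kit+D against Kit−D. Cdkn2c lay under the filter on dim genes (5.29), which limits what its values can show.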
